A study of Mus musculus with 2 samples.

Results

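NMDA receptor subunit RNA was measured in hippocampal tissue of female B6CASTF1/J mice, a hybrid of the C57BL/6J and CAST/EiJ strains. The genes were chosen by name and comprise all 7 that encode a subunit of this receptor (Grin1, Grin2a, Grin2b, Grin2c, Grin2d, Grin3a and Grin3b), of 55536 annotated genes in the tables, with 39 annotated transcripts among them. The study holds 1 group with 2 libraries of total RNA, numbered as biological replicates 1 and 2, from a layer of the hippocampus at 36 days of age and with 300 ng of RNA as input. The labels give each library its own biosample and both the same donor identifier, so the spread below is that between these samples and may be technical. No treatment, mutation or second condition is labelled, so the data give levels with their spread over n = 2 libraries, and no test between conditions was possible.

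NMDA receptors are ion channels opened by glutamate at excitatory synapses. GluN1, the product of Grin1, is obligatory and binds the co-agonist glycine or D-serine, the GluN2 subunits bind glutamate and set how long the channel stays open, and the GluN3 subunits bind glycine and lower calcium entry. In the hippocampus the receptor is known for triggering synaptic plasticity, and in rodent forebrain GluN2A is known to join GluN2B at synapses as the animal matures. Pre-mRNA of Grin1 is spliced in several ways: the N1 cassette lies in the extracellular amino-terminal domain, while the C1 cassette and the alternative ends C2 and C2' lie in the intracellular tail.

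Those splice choices carry much of what follows, so their coding sequences are shown as they stand in the mm10 reference transcripts of GENCODE M21, on the strand of the gene. Capitals mark the alternative part, and lower case marks the 12 bases joined to it on each side in the spliced RNA. The letters are those of the reference and were not read from these mice. The N1 exon (chr2:25311343-25311405, minus strand) adds 63 bases and the C1 exon (chr2:25294438-25294548) adds 111 bases. The coding part of C2 (chr2:25292371-25292484) has 114 bases and that of C2' (chr2:25292063-25292128) has 66 bases. The 5th sequence is a 60-base insert in the coding region of Grin3a (chr4:49665566-49665625, minus strand) that sets the longer annotated GluN3A form apart. Each of the 5 is a whole number of codons (21, 37, 38, 22 and 20 in the order given). Adding N1, C1 or the Grin3a insert therefore keeps the reading frame, while C2 and C2' are alternative ends with a stop codon each.
Grin1 N1 cassette: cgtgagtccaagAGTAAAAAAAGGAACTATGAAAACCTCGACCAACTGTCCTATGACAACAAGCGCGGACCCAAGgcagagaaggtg
Grin1 C1 cassette: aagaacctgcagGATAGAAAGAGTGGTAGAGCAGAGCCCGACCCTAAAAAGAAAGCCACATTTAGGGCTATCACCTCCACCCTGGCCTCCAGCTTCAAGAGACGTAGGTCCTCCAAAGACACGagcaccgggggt
Grin1 C2 coding end: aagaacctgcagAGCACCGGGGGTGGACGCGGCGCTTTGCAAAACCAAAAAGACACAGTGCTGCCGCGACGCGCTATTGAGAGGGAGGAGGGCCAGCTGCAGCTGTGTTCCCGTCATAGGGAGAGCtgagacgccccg
Grin1 C2' coding end: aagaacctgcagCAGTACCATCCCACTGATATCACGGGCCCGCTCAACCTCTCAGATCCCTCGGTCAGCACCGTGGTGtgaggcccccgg
Grin3a long-form insert: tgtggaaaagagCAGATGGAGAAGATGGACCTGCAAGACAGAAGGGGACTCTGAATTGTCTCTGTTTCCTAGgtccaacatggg

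The libraries held 32299053 and 30010758 expected counts on annotated genes in replicates 1 and 2, and 0.445% and 0.380% of all counts fell on added ERCC spike-in RNAs. Markers of neurons, excitatory neurons, GABAergic interneurons, astrocytes, oligodendrocytes and of the CA1, CA3 and dentate granule cell fields all reached 1 TPM in each library (TPM is a level corrected for RNA length and scaled to the same total in each library). The 2 markers of cerebellar granule cells, Cbln3 and Gabra6, were not. Choroid plexus markers set the libraries apart: the 5 summed to 25.2 TPM in replicate 1 and 1272 TPM in replicate 2, and 4 of the 4 with enough counts to compare were over 2-fold higher in replicate 2. In bulk tissue, fewer cells of a type and less RNA per cell cannot be told apart.

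Of the 7 subunit genes, 6 reached 1 TPM in each library, the level used here for detection, against 26.3% of all annotated genes and 57.6% of protein-coding genes. Grin1, Grin2a and Grin2b formed a high group, Grin2c and Grin3a stood several times lower, Grin2d lower again, and Grin3b was at the counting floor. The values below are TPM of the first of 2 deposited quantifications unless the other is named.

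Grin1 (chr2:25291181-25319187, minus strand), the obligatory subunit, had 172.58 TPM in replicate 1 and 159.01 TPM in replicate 2, a mean of 166 ± 9.60 (SD, n = 2). It ranked 424th of all genes by mean TPM and above 97.2% of the detected protein-coding genes. Both of its libraries lay above both libraries of every other subunit.

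Grin2a (chr16:9567898-9995560, minus strand) encodes the GluN2 subunit of fast-closing mature receptors and had 150.1 and 148.17 TPM in replicates 1 and 2 (149 ± 1.36). Grin2b (chr6:135713233-136173511, minus strand) encodes the subunit that prevails early in forebrain development and had 128.18 and 128.19 TPM (128 ± 0.0071). That SD is as small as the rounding of the values and does not measure their precision. The second quantification gave 163 and 172 TPM for Grin2b. The libraries of Grin1, Grin2a and Grin2b did not overlap, yet Grin1 exceeded Grin2a by only 1.11 times and Grin2a exceeded Grin2b by 1.16 times. The expected count of Grin2a was not whole in either library (33847.69 and 29362.56), so part of its reads had been divided with entries of another gene, and its level carries that uncertainty.

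Grin2c (chr11:115249169-115267243, minus strand), a subunit best known from cerebellar granule cells, had 17.42 and 16.83 TPM in replicates 1 and 2 (17.1 ± 0.42). The mean of Grin2b exceeded it by 7.49 times. The cerebellar granule markers summed to 0.26 and 1 TPM in the same libraries, and which cells held the Grin2c RNA was not tested.

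Grin3a (chr4:49661611-49845744, minus strand), which encodes a glycine-binding subunit abundant in young rodent brain, had 14.18 and 15.34 TPM (14.8 ± 0.82). Grin2d (chr7:45831883-45878378, minus strand), known in rodent hippocampus mainly from interneurons, had 4.57 and 4.93 TPM (4.75 ± 0.25). Neighbours in the order Grin2c, Grin3a, Grin2d did not overlap between libraries, although Grin2c exceeded Grin3a by only 1.16 times. An antisense gene, Gm45441, shares 643 exonic bases with Grin2d on the opposite strand and had 118 and 128 counts, beside 533 and 534 counts of Grin2d. Both genes had whole counts in each library, unlike Grin2a, so the counts show no reads divided between them. Whether counting used the strand is not given in the sources used here, so the origin of reads from the shared bases is not certain.

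Grin3b (chr10:79970715-79977190, plus strand), a subunit known from motor neurons, had 3 counts in each library, or 0.04 TPM. The exact Poisson interval of 3 counts covers 0.619 to 8.77 counts, which corresponds to 0.00825 to 0.117 TPM in replicate 1 (95%, counting error only). Its exons share 1059 bases with those of Tmem259 on the opposite strand, which had 2234 and 2121 counts. A count of 3 is the floor used here, so the level of Grin3b was not measurable at this depth.

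**Figure D1:**
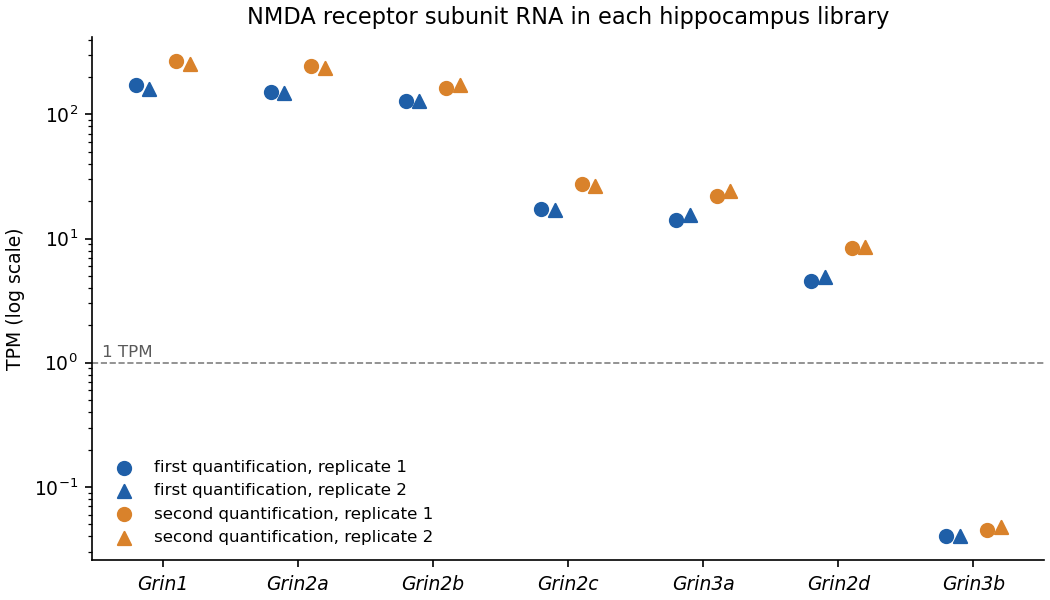
TPM of each NMDA receptor subunit gene on a log axis, with a point for each library (circles, replicate 1; triangles, replicate 2) in both quantifications (blue, first; orange, second); the dashed line is 1 TPM. Grin1, Grin2a and Grin2b lie above 100 TPM in every library and quantification, and Grin3b lies below the line in all of them.

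The second quantification gave the same order of the 7 genes, again with no overlap between neighbours. Its TPM were higher throughout, for example 271 and 256 TPM for Grin1, 247 and 234 TPM for Grin2a and 163 and 172 TPM for Grin2b in replicates 1 and 2. The rise was smaller for Grin2b, so that Grin2a exceeded Grin2b by 1.44 times there. By uncorrected counts the order differed, because these RNAs differ in length: Grin2b had most (43536 and 40865), then Grin2a, then Grin1 (15516 and 13668).

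As parts of the summed TPM of the family, Grin1 took 34.5% ± 1.26, Grin2a 31.1% ± 0.38 and Grin2b 26.7% ± 0.57. Grin2c took 3.57% ± 0.010, Grin3a 3.08% ± 0.24, Grin2d 0.991% ± 0.074 and Grin3b 0.0083%. The 6 GluN2 and GluN3 genes together thus held more RNA than the obligatory subunit. Grin1 amounted to 0.549 and 0.507 of their summed TPM in replicates 1 and 2 (0.528 ± 0.029), and to 0.565 in the second quantification.

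Grin2a made up 53.9% and 53.6% of the TPM of Grin2a and Grin2b together in replicates 1 and 2 (53.8% ± 0.23). This share depended on what was counted, and its direction was not fixed. It was 59.0% in the second quantification, and it fell to 46.5% when only transcripts annotated as protein coding were summed and to 42.8% in uncorrected counts. When the sum was restricted to transcripts that hold the complete coding sequence, a choice made after the data were seen, the quantifications came close to each other at 55.3% and 55.8%.

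The transcripts show where these measures part. Annotated transcripts that lack the complete coding sequence, most of them short, took 30.7% of the TPM of Grin2b in each library but only 2.07% and 2.39% of its expected counts in replicates 1 and 2. In the second quantification they took 15.2% and 16.5% of its TPM. TPM divides reads by transcript length, so the same reads weigh more on a short transcript than on a long one.

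Grin2b-201, a transcript of 24060 bases, held 53.7% ± 1.08 of the TPM of its gene, and Grin2b-202, of 7484 bases with the same coding length of 1482 codons, held 15.6% ± 1.10. The shorter Grin2b-204, Grin2b-205 and Grin2b-206 (703, 2461 and 601 bases) held 12.1%, 8.52% and 6.79%, and 10.7%, 3.78% and 1.38% in the second quantification. In the second quantification Grin2b-206 was listed at 0 in replicate 2, so its share is not a firm measurement.

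Grin2a-206, of 14634 bases, held 52.6% ± 3.91 of the TPM of Grin2a, and Grin2a-202, of 5023 bases, held 21.1% ± 0.12. Both encode the same 1464 codons and differ in their untranslated parts. The 3 incomplete transcripts took 23.7% and 29.0% of the TPM in replicates 1 and 2, but 5.30% and 6.34% of the counts. Among them the retained-intron transcript Grin2a-204 was steady (11.0% in the first and 10.5% in the second quantification), whereas Grin2a-203, also with a retained intron, had 7.50% in the first and 0.542% in the second, and Grin2a-205 had 7.82% and 15.2%.

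**Figure D2:**
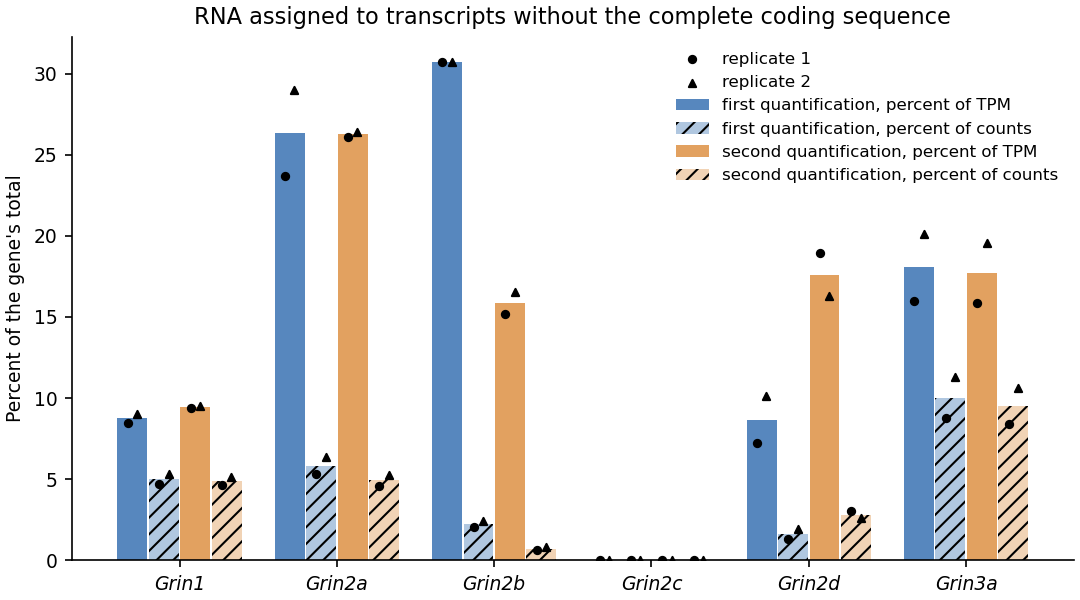
Percent of each gene's TPM (solid bars) and of its counts (hatched bars) on annotated transcripts without the complete coding sequence, as means of 2 libraries, with the libraries as circles (replicate 1) and triangles (replicate 2); blue is the first and orange the second quantification. For Grin2b the bars of TPM reach 30.7% and 15.9% while those of counts stay at 2.23% and 0.714%; Grin2c has no such transcript.

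Restricted to complete coding transcripts, the order of the subunits held and the high group spread out: Grin1 had 158 and 145 TPM, Grin2a 115 and 105 TPM, and Grin2b 88.8 TPM in each library. Grin1 then reached 0.651 of the summed TPM of the other 6 genes, against 0.528 with all transcripts.

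Among the less abundant subunits, Grin2c-201 and Grin2c-202 encode the same 1239 codons. Grin2c-201 led in the first quantification with 54.0% ± 3.27 of the TPM of Grin2c, and Grin2c-202 led in the second with 57.0% ± 9.64. Its share there was 50.2% in replicate 1 and 63.8% in replicate 2, so no leading Grin2c transcript can be named. Grin2d-201 held 62.0% ± 2.07 and Grin2d-203 29.3% ± 0.022 of the TPM of Grin2d, and the short Grin2d-202 held 8.67% in the first and 17.6% in the second quantification. The shares of Grin2d-202 rest on few counts, 7.01 and 10.1 in replicates 1 and 2 of the first and 17.9 and 15.2 of the second. All the reads of Grin3b were placed on the complete form Grin3b-201 in the first quantification, while the second also placed 20.7% of its TPM on Grin3b-203. That share rests on 0.211 and 0.203 estimated counts in replicates 1 and 2, so it is not a measured isoform share.

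The transcript with the highest mean TPM was the same in both quantifications for 5 of the 6 detected subunit genes, all but Grin2c. The same held for 75.1% of the 11955 genes with 2 or more annotated transcripts that reached 1 TPM. The 5 include Grin1, whose highest transcripts in the second quantification, Grin1-201 (30.4% ± 0.50) and Grin1-205 (30.3% ± 2.00), overlapped between libraries. In replicate 1 alone Grin1-205 was the higher there, and the count was 4 of 6.

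Grin3a-201 and Grin3a-202 differ by the 60-base insert shown above, which in the rat marks a longer GluN3A form. The long form took 29.9% of the complete coding TPM in replicate 1 and 20.7% in replicate 2 (25.3% ± 6.51). It took 27.2% and 16.2% in the second quantification. The short form was thus the more abundant in every library and quantification. The incomplete Grin3a-203 held a further 17.3% ± 2.40 of the TPM of the gene.

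The N1 cassette was present in a minority of Grin1 RNA and the C1 cassette in 49.6% to 59.4% of it. N1 is known from rodent and expressed receptors to speed channel closing and to reduce inhibition by protons. It was carried by 11.7% and 12.6% of the complete coding TPM in replicates 1 and 2 (12.1% ± 0.64), and by 14.0% and 15.3% in the second quantification. Between the quantifications the libraries did not overlap, but the values differed by under 3 percentage points on average.

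C1 holds phosphorylation sites and a signal that retains the subunit in the endoplasmic reticulum. It was carried by 54.5% and 59.4% of the complete coding TPM in replicates 1 and 2 (57.0% ± 3.42), and by 49.6% and 51.5% in the second quantification. RNA with C1 was in the majority in both libraries of the first quantification but in replicate 2 alone of the second.

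C2 is used when the upstream splice site of the last exon is chosen, and C2' when the site 356 bases further on is chosen; C2' ends in a motif that binds PDZ-domain proteins and aids export to the cell surface. C2 was carried by 61.7% and 65.5% of the complete coding TPM in replicates 1 and 2 (63.6% ± 2.67), and by 57.9% and 60.7% in the second quantification. The remaining 38.3% and 34.5% carried C2'. C2 was the more common end in every library and quantification.

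Taking the tail as a whole, C1 with C2 was the most common ending (46.9% ± 2.61), followed by C2' without C1 (26.3% ± 3.48), C2 without C1 (16.7% ± 0.058) and C1 with C2' (10.1% ± 0.81). The second quantification gave the same order, with 43.3%, 33.4%, 16.0% and 7.29%. RNA without C1 thus ended mostly in C2', and RNA with C1 mostly in C2.

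**Figure D3:**
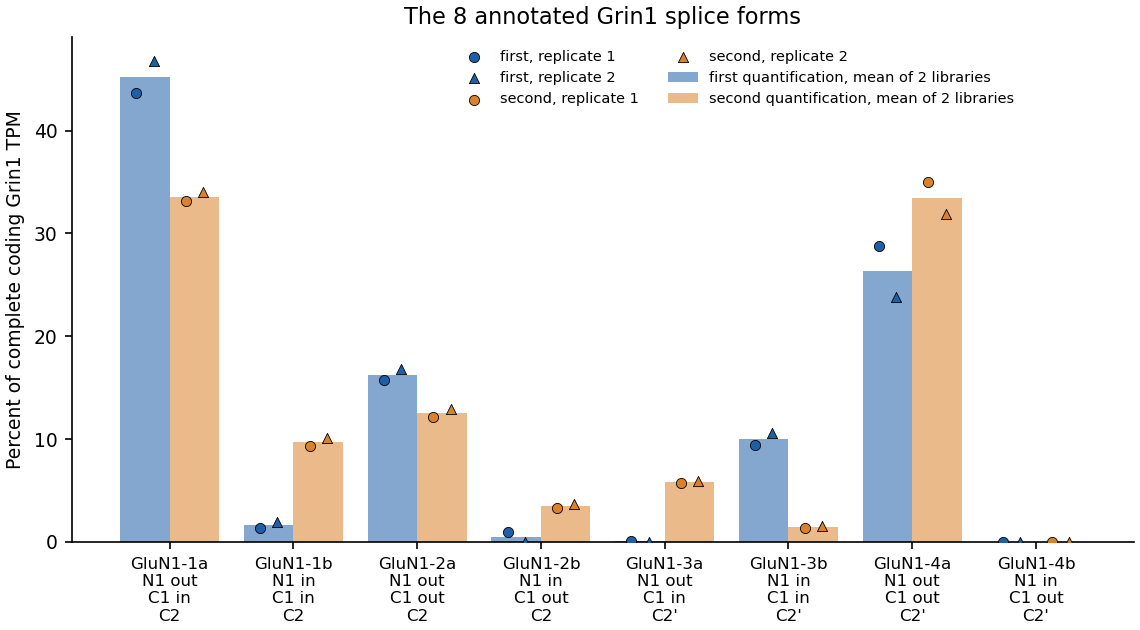
Percent of the complete coding Grin1 TPM held by each of the 8 annotated splice forms, as bars for the mean of 2 libraries and points for each library (circles, replicate 1; triangles, replicate 2), in the first (blue) and second (orange) quantification; the labels under each form give its cassettes. GluN1-1a and GluN1-4a lead in both, GluN1-3b is high in the first alone, and GluN1-4b is at 0 in both.

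The 8 complete transcripts of Grin1 correspond to the 8 combinations of these choices and are named here by the usual scheme, GluN1-1 to GluN1-4 for the tail, with a for N1 absent and b for N1 present. GluN1-1a (Grin1-201; no N1, C1 and C2) had 69.06 and 67.68 TPM in replicates 1 and 2, the most of any form. GluN1-4a (Grin1-205; no N1, no C1, C2') had 45.47 and 34.5 TPM, and GluN1-2a (Grin1-202; no N1, no C1, C2) had 24.89 and 24.26 TPM. These 3 forms without N1 held most of the Grin1 RNA in the first quantification, and GluN1-4a differed most between the libraries.

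In the second quantification GluN1-4a had 85.9 and 73.9 TPM and GluN1-1a 81.5 and 78.8 TPM, so the 2 overlapped and neither led. GluN1-2a had 29.8 and 30.0 TPM there, again in the third place. GluN1-4a is the only form annotated with a first exon of 559 bases, where the others have 467 or 492.

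Forms that carry N1, and also GluN1-3a, which does not, were placed differently by the quantifications. GluN1-3b (Grin1-208; N1, C1 and C2') had 14.86 and 15.39 TPM in the first quantification but 3.42 and 3.55 TPM in the second. GluN1-1b (Grin1-204; N1, C1 and C2) had 2.07 and 2.78 TPM in the first and 23.0 and 23.3 TPM in the second. GluN1-3a (Grin1-206; no N1, C1 and C2') had 0.18 and 0.04 TPM in the first and 14.1 and 13.8 TPM in the second. Within each quantification the libraries lay close together, so the agreement of replicates gave no sign of this disagreement.

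The first tables also hold an interval for each transcript, and that of GluN1-3b ran from 0.000345 to 9.03 TPM in replicate 1 and from 0.114 to 9.58 TPM in replicate 2. The printed estimates of 14.86 and 15.39 TPM lay above both intervals. For GluN1-3a the interval ran from 5.28 to 17.2 TPM in replicate 1 and from 3.43 to 15.8 TPM in replicate 2, above the printed estimates of 0.18 and 0.04 TPM. The deposited estimates and the deposited intervals thus differed on how much RNA belonged to these forms.

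Which tail went with N1 was accordingly not determined by these tables. Of RNA with C1 and C2', 98.8% and 99.7% carried N1 in replicates 1 and 2 in the first quantification, against 19.5% and 20.5% in the second and 22.3% and 35.5% by the posterior means that accompany the first. Of RNA with C1 and C2, 2.91% and 3.95% carried N1 in the first quantification and 22.0% and 22.8% in the second. The N1 exon is exon 4 and the C1 exon is exon 20 of 21, and 2019 bases of spliced RNA lie between them. The second quantification assumed mean fragments of 339.06 and 325.02 bases, so a fragment of that length cannot hold both exons.

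The last 2 of the 8 forms held under 5% of Grin1 in either quantification. GluN1-2b (Grin1-203; N1, no C1, C2) had 1.48 and 0 TPM in the first quantification and 8.01 and 8.50 TPM in the second. GluN1-4b (Grin1-207; N1, no C1, C2') was listed at 0 TPM in both libraries of both quantifications. Its posterior mean counts were 231 and 209, and 5.77% and 7.23% of the RNA with C2' and no C1 carried N1 by that estimate. The 0 is therefore an estimate, not a direct observation that the form was missing.

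**Figure D4:**
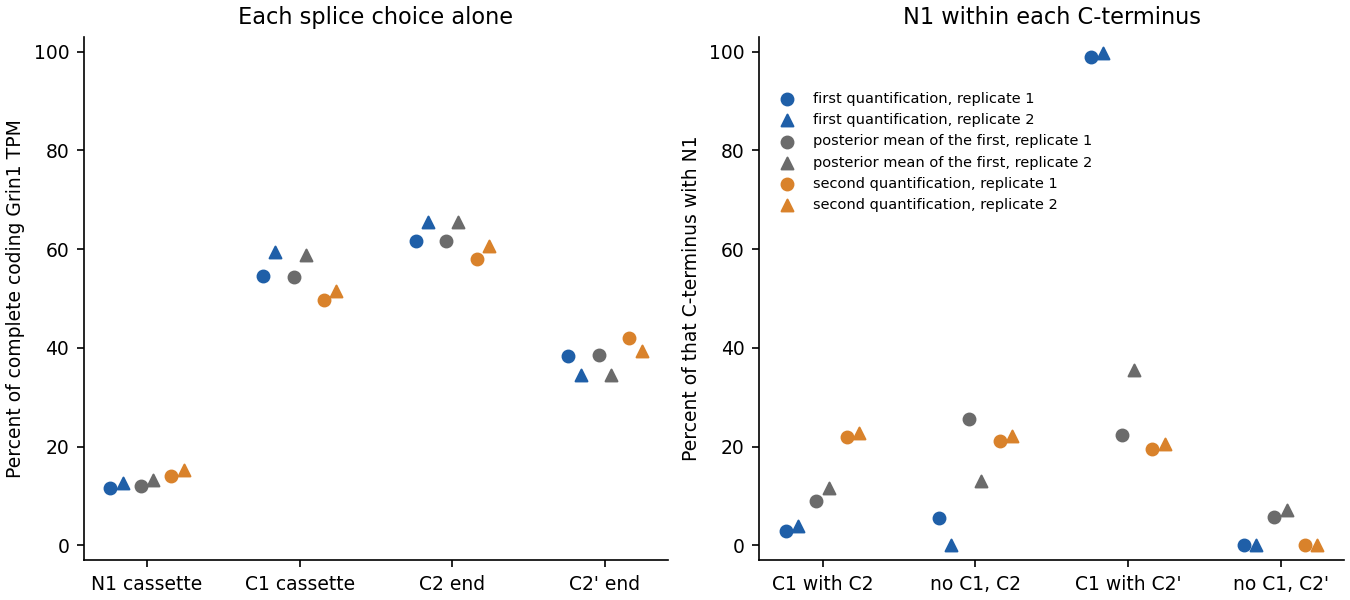
Left, percent of complete coding Grin1 TPM with each cassette or end; right, percent carrying N1 among the RNA with each C-terminus; circles are replicate 1 and triangles replicate 2, with the first quantification in blue, its posterior mean in grey and the second in orange. The single choices lie close together in all 3 estimates, whereas N1 in RNA with C1 and C2' ranges from 19.5% to 99.7%.

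Between the libraries the subunit genes differed little. On counts scaled by the trimmed mean of M-values (TMM), the log2 ratio of replicate 2 over replicate 1 was -0.11 for Grin1, -0.13 for Grin2a, -0.01 for Grin2b, -0.03 for Grin2c, 0.08 for Grin2d and 0.09 for Grin3a. None of the 6 with a mean count of 100 or more passed 2-fold, against 0.466% of the 12651 genes compared (59 genes). Their median log2 ratio was -0.02, beside -0.01 over all genes compared, and the median size of the ratio over all genes was 0.08. Scaling to the ERCC spike-ins made all 6 ratios positive, as it shifted the median of all genes to 0.25, while the TMM median was -0.01. Beside these ratios, the medians were -0.10 for the excitatory neuron markers, -0.31 for the CA3 markers, 0.16 for the dentate granule markers and -0.35 for the oligodendrocyte markers, and their part in the subunit ratios was not tested.

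**Figure D5:**
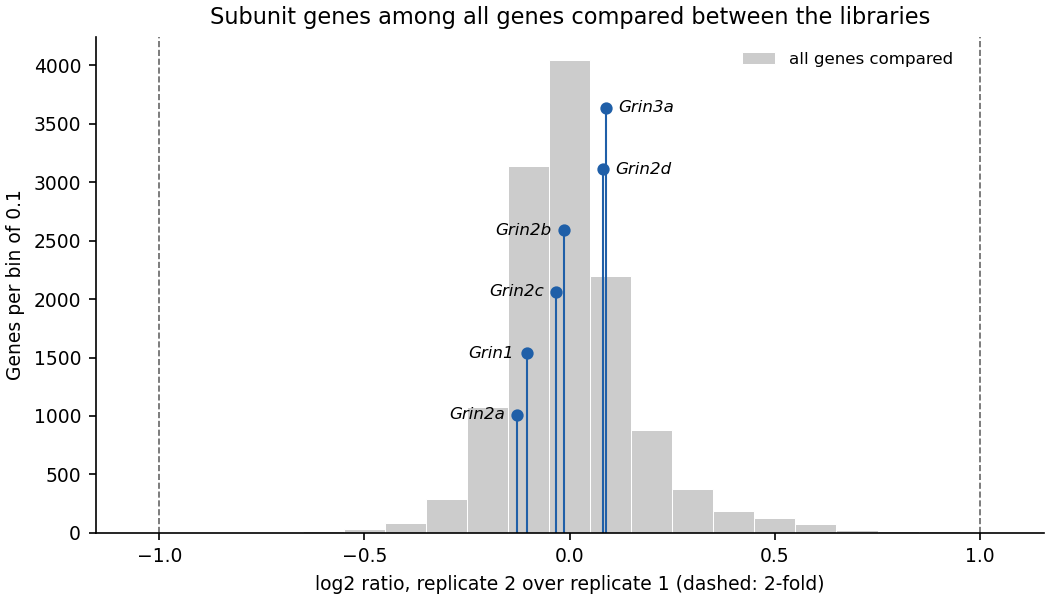
Histogram of the log2 ratio of replicate 2 over replicate 1 for all genes averaging at least 100 counts (grey, bins of 0.1; 58 genes lie outside the plotted range), with the 6 subunit genes that reach this count as blue stems whose height has no meaning. The stems run from -0.13 for Grin2a to 0.09 for Grin3a, all between the dashed lines at 2-fold.

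The coding sequences of the subunits differ in length and composition. In their longest annotated forms they ran from 2877 bases for Grin1 to 4446 bases for Grin2b. The share of G and C was lowest in Grin2a (50.8%), Grin3a (51.1%) and Grin2b (52.9%) and highest in Grin2d (67.3%), Grin3b (64.0%) and Grin2c (62.4%), with Grin1 at 55.6%. Pairwise identity of aligned coding bases was highest between Grin2c and Grin2d (69.6%) and between Grin2a and Grin2b (67.7%), and lowest between Grin2d and Grin3a (59.5%). All pairs lay in this narrow range, and the order did not simply follow the subunit classes. Grin1 and Grin2a had 66.55%, above Grin3a and Grin3b at 65.96%. Identity was counted over aligned bases alone, 2771 for Grin1 and Grin2a and 2958 for Grin3a and Grin3b. What unrelated sequences would give was not tested, so these values do not rank how closely the subunits are related.

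Among ionotropic glutamate receptors the NMDA subunits summed to 487 and 473 TPM in replicates 1 and 2, the 4 AMPA subunits to 639 and 613 TPM, and the 5 kainate subunits to 173 and 172 TPM. AMPA receptors carry fast excitation and kainate receptors modulate it. NMDA subunits thus made up 37.5% ± 0.068 of this RNA, AMPA subunits 49.0% ± 0.31 and kainate subunits 13.5% ± 0.24. In uncorrected counts the NMDA share was 52.1%, above the AMPA share of 39.5%. All 9 AMPA and kainate genes were detected, against 57.6% of protein-coding genes. None passed 2-fold between the libraries, against 0.466% of the genes compared.

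Genes that act with the receptor were also measured. Beside the counts given for each list, 57.6% of all protein-coding genes were detected and 0.466% of the genes compared passed 2-fold. With so small a share past 2-fold, finding none in a short list does not set that list apart. All 18 genes of receptor anchoring and trafficking were detected, at a median of 44.9 ± 1.26 TPM. The highest were Dlg4, which encodes the scaffold PSD-95 that binds GluN2 tails (347 ± 11.2 TPM), Nefl, which encodes a neurofilament protein (176 ± 22.0), and Pacsin1, which encodes an endocytic adaptor (124 ± 0.08). None passed 2-fold between the libraries. Of these 3, Nefl differed most (191 TPM in replicate 1 and 160 TPM in replicate 2).

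All 19 genes of the list of kinases and phosphatases that act on the receptor, which also holds the anchoring protein gene Akap5, were detected, at a median of 69.2 ± 1.47 TPM. Camk2a (1241 ± 87.1 TPM) and Camk2b (438 ± 6.37), which encode subunits of the calcium/calmodulin kinase that docks on GluN2B, and Ppp3ca (513 ± 35.1), which encodes a calcineurin catalytic subunit, were the highest. None of the 19 passed 2-fold.

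Of 18 genes for supply and removal of the co-agonists and related modulators, 13 were detected, at a median of 8.79 ± 0.064 TPM over the 18. The highest were Psat1 (44.0 ± 2.92 TPM) and Phgdh (29.3 ± 1.90), enzymes of L-serine synthesis, and Srr (36.5 ± 2.59), the racemase that makes D-serine. Slc1a5, Slc6a5, Dao, Aadat and Kmo were below 1 TPM in at least 1 library. None of the 12 with a mean count of 100 or more passed 2-fold.

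All 17 genes of signalling downstream of calcium entry were detected, at a median of 72.3 ± 0.11 TPM. Calm3 (919 ± 37.2 TPM) and Calm2 (854 ± 84.3), which encode the calcium sensor calmodulin, were the highest. None of the 17 passed 2-fold.

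RNA of all 11 genes for RNA-binding proteins known from studies of Grin1 splicing or of related neuronal exons was detected, at a median of 62.8 ± 1.53 TPM. Rbfox1 (156 ± 10.9 TPM), Hnrnph1 (116 ± 7.54) and Hnrnpa1 (107 ± 3.13) were the highest. None passed 2-fold, and with 2 libraries of 1 group no relation between their levels and the cassettes can be measured.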

How the data were processed

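Total RNA of 2 hippocampus libraries had been sequenced with ERCC spike-ins. In the gene and first transcript tables the authors deposited expected counts (estimates that can be fractional) and TPM, per the file headers; the transcript table also holds each transcript's percent of its gene as deposited, with posterior mean counts and bounds on TPM. Estimated counts and TPM of another quantification, as the authors deposited them, fill the second transcript table. The column names are those RSEM and kallisto write; the sources used here name neither the software nor its strand setting. Both used mm10 with GENCODE M21. Depth is 32299053 and 30010758 expected counts. The Poisson interval of Grin3b covers counting error only, whereas the bounds on TPM of the Grin1 forms are those the authors deposited.

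Members and lists were chosen with earlier results of these data known. Named were all members, transcripts at 5% or more of their gene in either quantification, and of each list at most the 3 genes with the highest mean TPM; 1 of these is not reported here. A complete coding transcript holds at least 90% of the gene's longest coding sequence. Expected counts were rounded and scaled with edgeR 4.0.16 (TMM, prior count 0.5) in R 4.3.3; log2 ratios were compared at a mean count of 100 or more and called past 2-fold. DESeq2 1.42.0 gave alternative size factors. Python 3.11.15, pandas 2.3.3 and Biopython 1.88 did the rest. With 1 group, no p-value was computed. Alternatives were the second quantification, counts, protein-coding or complete transcripts, other scalings and minimums, and each library alone.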

Additional observations from a re-analysis of the deposited data

How the results depend on the processing

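No paired analysis was possible because the study has 1 group. Each level or share from a single library stayed within 1 SD of the mean, which 2 libraries cannot fail, and no alternative moved the number of subunits past 2-fold. The number of subunit genes with the same highest transcript in both quantifications was 5, but 4 in replicate 1 alone. The order of the genes by TPM held in both quantifications. Exact TPM did not: the second quantification gave 264 TPM for Grin1, 241 for Grin2a, 167 for Grin2b, 26.9 for Grin2c, 8.44 for Grin2d, 23.1 for Grin3a and 0.0465 for Grin3b. With the first quantification rescaled to the TPM of protein-coding genes, the same 7 genes had 384, 346, 297, 39.7, 11.0, 34.2 and 0.0927 TPM.

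Family shares in the second quantification were 36.1% (Grin1), 33.0% (Grin2a), 22.9% (Grin2b), 3.69% (Grin2c), 1.16% (Grin2d) and 0.00638% (Grin3b). In counts they were 15.7% (Grin1), 34.0% (Grin2a), 45.4% (Grin2b), 1.89% (Grin2c), 0.575% (Grin2d), 2.44% (Grin3a) and 0.00324% (Grin3b). Over protein-coding transcripts they were 35.9% (Grin1), 26.1% (Grin2a), 30.0% (Grin2b), 4.06% (Grin2c), 1.13% (Grin2d) and 0.00950% (Grin3b). Over complete coding transcripts, added after seeing the data, they were 39.4% (Grin1), 28.6% (Grin2a), 23.2% (Grin2b), 4.47% (Grin2c), 1.13% (Grin2d) and 0.0104% (Grin3b).

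The Grin2a share of Grin2a plus Grin2b was 59.0% in the second quantification, 42.8% in counts, 46.5% over protein-coding transcripts, and 55.3% and 55.8% over complete transcripts of the first and second. Grin1 per summed Grin2 and Grin3 was 0.565 in the second quantification, 0.186 in counts and 0.651 over complete transcripts. The NMDA share of ionotropic glutamate receptor RNA was 36.1% in the second quantification and 52.1% in counts. The second quantification gave 14.6% for N1, 50.6% for C1 and 59.3% for the C2 end, an alternative added after seeing the data, as was the posterior mean, which kept N1, C1 and C2 within 1 SD. It gave 30.4% of Grin1 to Grin1-201, 67.9% of Grin2b to Grin2b-201, 43.0% of Grin2c to Grin2c-201, 49.7% of Grin2d to Grin2d-201 and 64.3% of Grin3a to Grin3a-201. Counts are not corrected for length, which by itself favours the long Grin2b RNA; for the other shifts the cause was not tested. Depth limits Grin3b, and the deposited intervals limit the Grin1 forms with N1 and also GluN1-3a.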

Other observations

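Several genes that act with the receptor differed more between the libraries than any subunit did, and 4 of them are named here after their values were seen. Of the 12651 genes compared, 67.3% had a smaller ratio in size than Grin2a, the subunit that differed most. The rest differed as much or more, so this does not set these genes apart. Prkca, which encodes a protein kinase C isoform, had 95.8 TPM in replicate 1 and 68.9 TPM in replicate 2, a log2 ratio of replicate 2 over replicate 1 of -0.37 and the lowest of the 19 genes in the list of kinases and phosphatases. Shmt1, which encodes an enzyme that interconverts serine and glycine, had 2.13 and 2.83 TPM from 88 and 113 counts, a log2 ratio of 0.44 and the largest in these lists among genes that averaged at least 100 counts. Tiam1, which encodes an activator of the small GTPase Rac, had 42.5 and 49.2 TPM, a log2 ratio of 0.26. Ptbp1, which encodes a splicing repressor, had 17.2 and 19.0 TPM, a log2 ratio of 0.25 and the highest of the 11 genes for RNA-binding proteins. All lay well inside 2-fold, and no test was possible.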
